A study of Homo sapiens with 18 samples.

Results

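Aminoacyl-tRNA synthetases were followed across 18 expression arrays of human colorectal cancer cells. The group was fixed by name and comprised 35 genes, 19 for enzymes that work in the cytosol and 16 for enzymes of the mitochondrion, whose symbols end in 2. All 35 were measured among the 18132 genes on the array. Each gene was represented by the probe set, a group of short probes for 1 transcript, that had the highest mean log2 signal over the 18 arrays. The aspartate enzymes and any other synthetase outside this list were not analysed here.

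The arrays formed 6 groups of 3. WiDr cells had received AZ628, a small molecule that inhibits RAF kinases, or its vehicle. WiDr cells had also been transduced with a short hairpin RNA (shRNA) against IKKα, a kinase encoded by CHUK, or with a control shRNA. HT29 cells had received AZ628 or vehicle. Both lines are established and carry an activating mutation of BRAF, the kinase upstream of MEK and ERK, and WiDr is thought to derive from HT29. The dose and duration of AZ628, the number of shRNA sequences, and whether the transduced cells were clones or pools were not given in the labels. Nothing in the labels ties the 3 arrays of a group to independent cultures, so the p-values rest on array-to-array spread that could be purely technical.

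Aminoacyl-tRNA synthetases join each amino acid to its own tRNA, the step that sets the meaning of the codons. They fall into class I and class II, which use catalytic domains of unrelated fold. Most amino acids have separate cytosolic and mitochondrial enzymes encoded by different nuclear genes, whereas GARS1 and KARS1 each supply both compartments. In the cytosol several of the enzymes are held in a multisynthetase complex by scaffold proteins such as AIMP1. Many cytosolic synthetase genes are targets of ATF4, the transcription factor of the amino acid response, and growing cells driven by MYC need high synthetase levels for protein synthesis.

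ATF4 pairs with C/EBP proteins on a composite element with the letters TGATGNAAN (called CARE), and MYC binds the E-box CACGTG. Both were searched on both strands of the RefSeq promoter windows (GRCh38.p14) that run from 250 bases before to 50 bases after each gene's start. Windows were found for 30 of the 35 genes by symbol, and a gene with several windows was counted as holding a motif if any window did. CARE was in 7 of 16 cytosolic genes (43.8%) and in 1 of 14 mitochondrial genes (7.14%), against 4.45% of all 27305 genes with a window. The E-box was in 1 of 16 cytosolic genes (6.25%) and 3 of 14 mitochondrial genes (21.4%), against 8.77% of all genes. Each match is a description of the letters and not a measured binding site. The 8 CARE matches are shown because the genes that carry them are followed through the results, on the strand on which the motif reads forward, with the motif in capitals and 30 bases each.
AARS1 (chr16:70289675-70289704, plus strand): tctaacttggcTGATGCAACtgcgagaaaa
CARS1 (chr11:3057407-3057436, plus strand): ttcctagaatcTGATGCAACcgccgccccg
GARS1 (chr7:30594834-30594863, minus strand): ggctcggagcaTGATGAAATcgccgcgtaa
IARS1 (chr9:92293692-92293721, plus strand): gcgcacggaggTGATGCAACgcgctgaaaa
MARS1 (chr12:57488053-57488082, minus strand): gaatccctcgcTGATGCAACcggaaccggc
NARS1 (chr18:57621803-57621832, minus strand): ctacgctctcTGATGCAACgccggaatcgc
TARS1 (chr5:33440956-33440985, minus strand): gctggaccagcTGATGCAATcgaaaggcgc
YARS2 (chr12:32756075-32756104, minus strand): tccacactgcTGATGGAAAaattaagttta
In 6 of the 7 cytosolic genes the motif lay within 34 bases of the gene's start, whereas in AARS1 and in the mitochondrial YARS2 it began 188 and 197 bases before the start. The 4 E-box matches are shown in the same form on the gene's own strand, with the E-box in capitals. The matches in CARS2, EARS2 and MARS2 began at most 15 bases before the start, and that of IARS1 began 186 bases before it.
IARS1 (chr9:92293866-92293895, minus strand): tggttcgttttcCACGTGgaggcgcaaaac
CARS2 (chr13:110706501-110706530, minus strand): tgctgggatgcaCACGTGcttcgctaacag
EARS2 (chr16:23557348-23557377, minus strand): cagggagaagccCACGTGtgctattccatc
MARS2 (chr2:197705346-197705375, plus strand): atgcgcctctcaCACGTGctgtcagaacgc
No motif of either kind was found in the windows of HARS1 and HARS2, the cytosolic and mitochondrial histidine enzymes, whose genes are transcribed away from each other. The 84 bases between their starts at chr5:140691371-140691454 (GRCh38.p14, plus strand) are shown because these neighbours moved in opposite directions with AZ628.
HARS1 to HARS2: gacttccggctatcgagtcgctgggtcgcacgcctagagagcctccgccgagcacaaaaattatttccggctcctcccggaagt

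Pearson correlations of the log2 signals over all genes were between 0.9971 and 0.9985 within groups and between 0.9555 and 0.9963 across groups. CHUK, the target of the shRNA, read 7.68, 7.23 and 7.65 with IKKα shRNA, below the 9.68, 9.45 and 9.78 with control shRNA (-2.12). The CHUK signal fell with AZ628 too, with a log2 change of -0.43 in the WiDr arrays (adjusted p = 0.00854) and of -0.37 in those of HT29 (adjusted p = 0.0209). The 9 markers of colorectal epithelium had mean log2 signals with a median of 11.57, of which CDX1 was lowest at 5.57. The markers of other cells had means of at most 6.46 for blood (HBB), 6.21 for endothelium (VWF) and 5.61 for fibroblasts (COL1A1), all below the median gene. The summed linear signal of the epithelial markers was lower without overlap in each comparison, at 45359.9 to 47231.8 with AZ628 and 52628 to 53103.1 with vehicle in WiDr, 42553 to 44886.2 with AZ628 and 47046.9 to 48735.3 with vehicle in HT29, and 53032.1 to 54726.9 with IKKα shRNA and 55868.9 to 58161.7 with control shRNA. With AZ628 4 of the 9 fell and 3 rose in each line, and with IKKα shRNA 2 fell and 1 rose. Over all genes 21.1% fell and 23.4% rose with AZ628 in WiDr, and 21.0% fell and 22.5% rose in HT29. With IKKα shRNA 19.0% of all genes fell and 15.9% rose. The sum of the 4 measured blood markers was 146.8 to 157.9 with AZ628 and 169 to 178.4 with vehicle in WiDr, and 137.2 to 143.1 with IKKα shRNA and 163.1 to 182.8 with control shRNA, CD14 being the 1 that fell. In HT29 the blood sums overlapped, although CD14 fell (-0.46), and the endothelial sums overlapped in all 3 comparisons. The summed signal of the 6 fibroblast markers was 201.1 to 221.7 with IKKα shRNA and 129.4 to 129.6 with control shRNA, and 192.9 to 213.2 with AZ628 and 149.2 to 168.6 with vehicle in HT29. In WiDr it was 148.3 to 159.1 with AZ628 and 128.3 to 161.9 with vehicle, which overlap. Of the 6, LUM and COL3A1 rose with IKKα shRNA (2.84 and 0.50) and LUM with AZ628 in WiDr (1.25) and HT29 (1.77), while COL1A2 fell with AZ628 in WiDr (-0.23). The part of these markers in the results was not tested. The mean signals of the synthetases ranked at percentile 54.1 of all genes or higher. Each change is the difference of 2 group means on the log2 scale, with its standard error (SE) from 1 limma fit to all 18 arrays. A gene is said to rise or fall where its Benjamini-Hochberg adjusted p over all 18132 genes was under 0.05. In these bulk cultures fewer cells of a kind and less RNA per cell cannot be told apart.

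**Figure D1:**
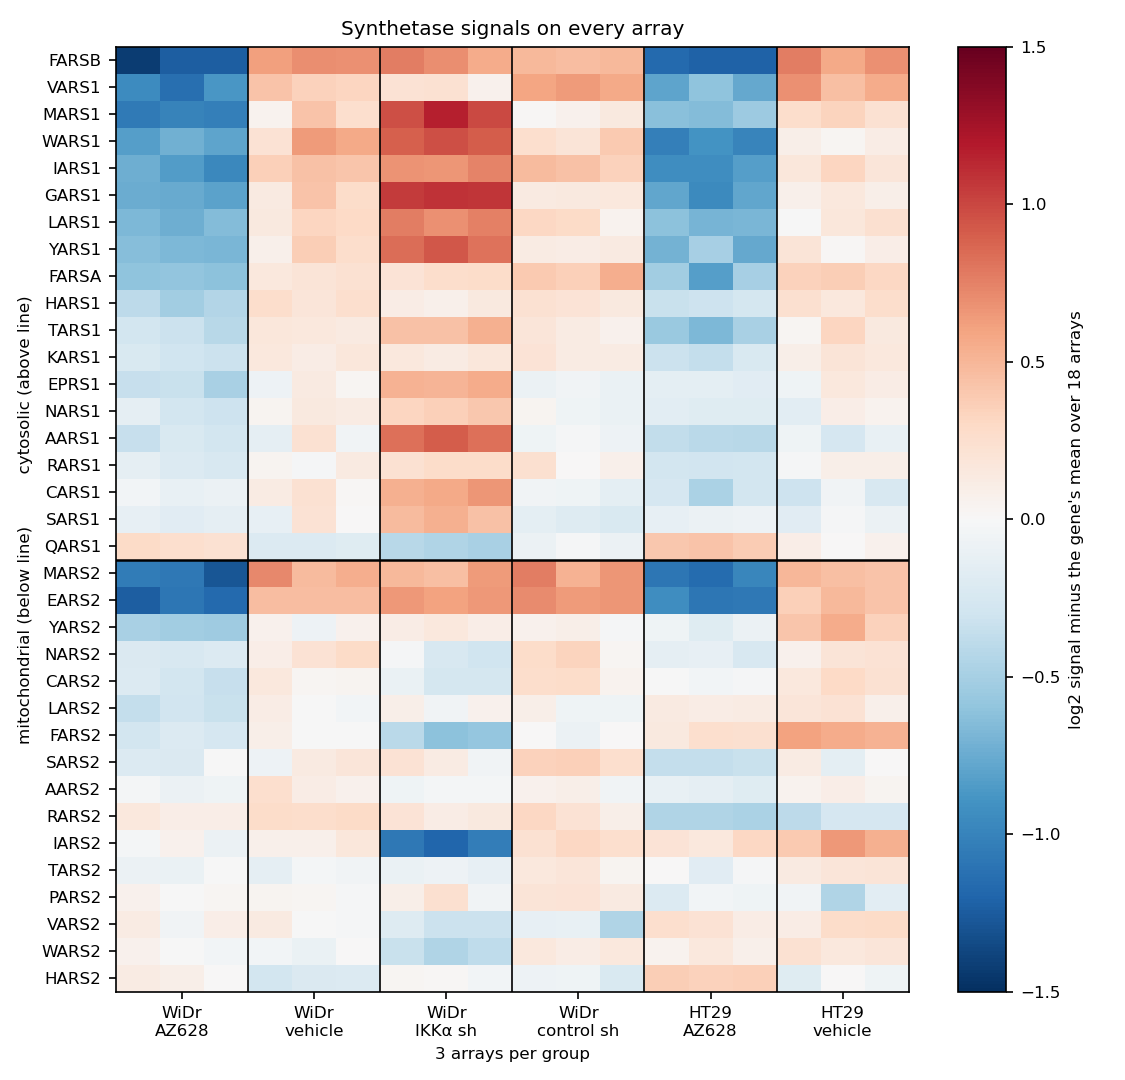
Log2 signal of each of the 35 synthetase genes (rows) on each of the 18 arrays (columns, 3 per group), as the difference from the gene's own mean over all arrays, with values beyond 1.5 shown at the end of the colour scale. Most cytosolic rows, above the line, are blue on the AZ628 arrays of both lines and red on the IKKα shRNA arrays, whereas QARS1 runs the other way.

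With AZ628, most synthetase genes of WiDr fell, and the median change was lower for the cytosolic than for the mitochondrial genes. Of the 19 cytosolic genes 17 fell, 1 rose (QARS1) and 1 did not pass (SARS1), with a median log2 change of -0.68. Of the 16 mitochondrial genes 9 fell, 1 rose (HARS2) and 6 did not pass, with a median of -0.21. Over all genes tested 21.1% fell and 23.4% rose, and the median was near 0 (-0.0005). A fall of at least 2-fold was seen in 6 cytosolic and 2 mitochondrial genes, against 4.35% of all genes.

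The deepest fall among the 35 genes was in FARSB, the β subunit of the cytosolic phenylalanine enzyme. It read 8.75, 8.94 and 8.94 on the AZ628 arrays, against 10.79, 10.88 and 10.86 with vehicle, a change of -1.97, SE 0.07, adjusted p = 1.58e-13, or 3.91-fold lower. FARSA, the α subunit of the same enzyme, read 7.42, 7.44 and 7.42 with AZ628 and 8.19, 8.22 and 8.26 with vehicle, a change of -0.80, SE 0.07, adjusted p = 6.38e-08. The groups did not overlap for either subunit.

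VARS1, the valine enzyme, read 7.65, 7.46 and 7.71 with AZ628, against 9.02, 8.93 and 8.92 with vehicle (-1.35, SE 0.08, adjusted p = 1.31e-10). MARS1, the methionine enzyme of the multisynthetase complex, read 8.36, 8.42 and 8.40 with AZ628 and 9.47, 9.85 and 9.68 with vehicle (-1.27, SE 0.08, adjusted p = 3.29e-10). WARS1, the tryptophan enzyme, which is also known as an interferon-inducible gene, read 8.56, 8.66 and 8.60 with AZ628 and 9.60, 10.02 and 9.96 with vehicle (-1.25, SE 0.09, adjusted p = 1.37e-09). In these 3 genes every AZ628 array lay below every vehicle array by more than the spread within either group. The VARS1 value rests on 1 bright probe set, since its 3 other probe sets were dimmer and changed by between -0.26 and -0.01 without passing.

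IARS1, the isoleucine enzyme, carries both motifs in its promoter window. It read 11.03, 10.92 and 10.79 with AZ628, against 12.11, 12.19 and 12.18 with vehicle (-1.25, SE 0.07, adjusted p = 3.64e-11). GARS1, the glycine enzyme of both compartments, read 11.32, 11.30 and 11.26 with AZ628 and 12.20, 12.49 and 12.34 with vehicle (-1.05, SE 0.07, adjusted p = 4.12e-10). The lysine enzyme KARS1, also of both compartments, changed by -0.43, SE 0.05, adjusted p = 2.22e-06. LARS1 (leucine) and YARS1 (tyrosine) fell by 0.94 and 0.90 on the log2 scale.

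At the other end of the cytosolic genes, SARS1, the serine enzyme, read 10.65, 10.60 and 10.64 with AZ628 and 10.65, 10.99 and 10.78 with vehicle (-0.18, SE 0.07, adjusted p = 0.0504), and the groups overlapped. It passed without vehicle replicate 1 (adjusted p = 0.00472) or without HT29 vehicle replicate 1 (adjusted p = 0.0499). CARS1, the cysteine enzyme, read 9.91, 9.85 and 9.87 with AZ628 and 10.09, 10.19 and 9.97 with vehicle (-0.21, SE 0.08, adjusted p = 0.0363). Its call was lost without any 1 of 5 arrays, the 3 with AZ628 or vehicle replicate 1 or 2 (adjusted p from 0.0506 to 0.165). QARS1, the glutamine enzyme, was the 1 cytosolic gene that rose, and it read 11.08, 11.05 and 11.03 with AZ628, against 10.59, 10.59 and 10.62 with vehicle (0.45, SE 0.05, adjusted p = 2.6e-07). All 3 AZ628 arrays lay above all 3 vehicle arrays, and its second probe set changed by 0.46. QARS1 belongs to the same multisynthetase complex as MARS1, IARS1 and LARS1, so members of 1 complex moved in both directions.

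Among the mitochondrial genes the falls of MARS2 and EARS2 stood far from the rest. MARS2, the mitochondrial methionine enzyme, read 8.12, 8.10 and 7.89 with AZ628, against 9.89, 9.65 and 9.72 with vehicle (-1.72, SE 0.08, adjusted p = 1.22e-11). EARS2, the glutamate enzyme whose product is also the precursor of mitochondrial glutaminyl-tRNA, read 7.67, 7.81 and 7.74 with AZ628 and 9.36, 9.36 and 9.37 with vehicle (-1.62, SE 0.06, adjusted p = 2.04e-13). These were the 2 mitochondrial genes that fell at least 2-fold, and both hold an E-box near the start. The third mitochondrial gene with an E-box, CARS2 (cysteine), changed by -0.35, SE 0.07, adjusted p = 0.000404, and the 11 mitochondrial genes with a window but no E-box changed by -0.53 to 0.30. A link between the E-box and the change was not tested, and this motif too was chosen with earlier results of these data known. Of the 15 cytosolic genes with a window but no E-box 13 fell, against 21.1% of all genes. The changes of these 15 ran from -1.97 (FARSB) to 0.45 (QARS1).

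The next fall among the mitochondrial genes was that of YARS2 (tyrosine). It read 9.09, 9.05 and 9.03 with AZ628 and 9.63, 9.50 and 9.63 with vehicle (-0.53, SE 0.06, adjusted p = 9.78e-07). NARS2 (asparagine) read 9.15, 9.12 and 9.16 with AZ628 and 9.46, 9.57 and 9.65 with vehicle (-0.42, SE 0.09, adjusted p = 0.000492). Neither gene's groups overlapped. HARS2 rose, with 9.23, 9.20 and 9.11 on the AZ628 arrays and 8.84, 8.89 and 8.91 on the vehicle arrays (0.30, SE 0.06, adjusted p = 0.000485). Its neighbour HARS1 fell, with 9.74, 9.60 and 9.68 on the AZ628 arrays, against 10.38, 10.31 and 10.38 with vehicle (-0.68, SE 0.05, adjusted p = 5.66e-09). For both genes every probe set with their symbol alone moved the same way, 2 for HARS2 and 3 for HARS1. A further 1 that carries HARS1 and another symbol was not tested. SARS2, the mitochondrial serine enzyme, changed by -0.22 without passing (adjusted p = 0.0521), and passed when any 1 of 6 arrays was left out (adjusted p from 0.0124 to 0.0469). TARS2, PARS2, VARS2 and WARS2 (threonine, proline, valine and tryptophan) had changes between 0.01 and 0.05 that did not pass, although 2 dimmer probe sets of WARS2 rose by 0.22 and 0.25. The 2 of them that moved least were TARS2, with 8.23, 8.21 and 8.32 under AZ628 and 8.18, 8.29 and 8.26 under vehicle, and PARS2, with 7.33, 7.27 and 7.30 under AZ628 and 7.31, 7.29 and 7.25 under vehicle, and the groups of both overlapped. RARS2 (arginine) passed with a small change (-0.15, SE 0.06, adjusted p = 0.0443), a call lost without any 1 of 13 of the 18 arrays, all AZ628 and vehicle arrays of WiDr among them (adjusted p from 0.0505 to 0.108).

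**Figure D2:**
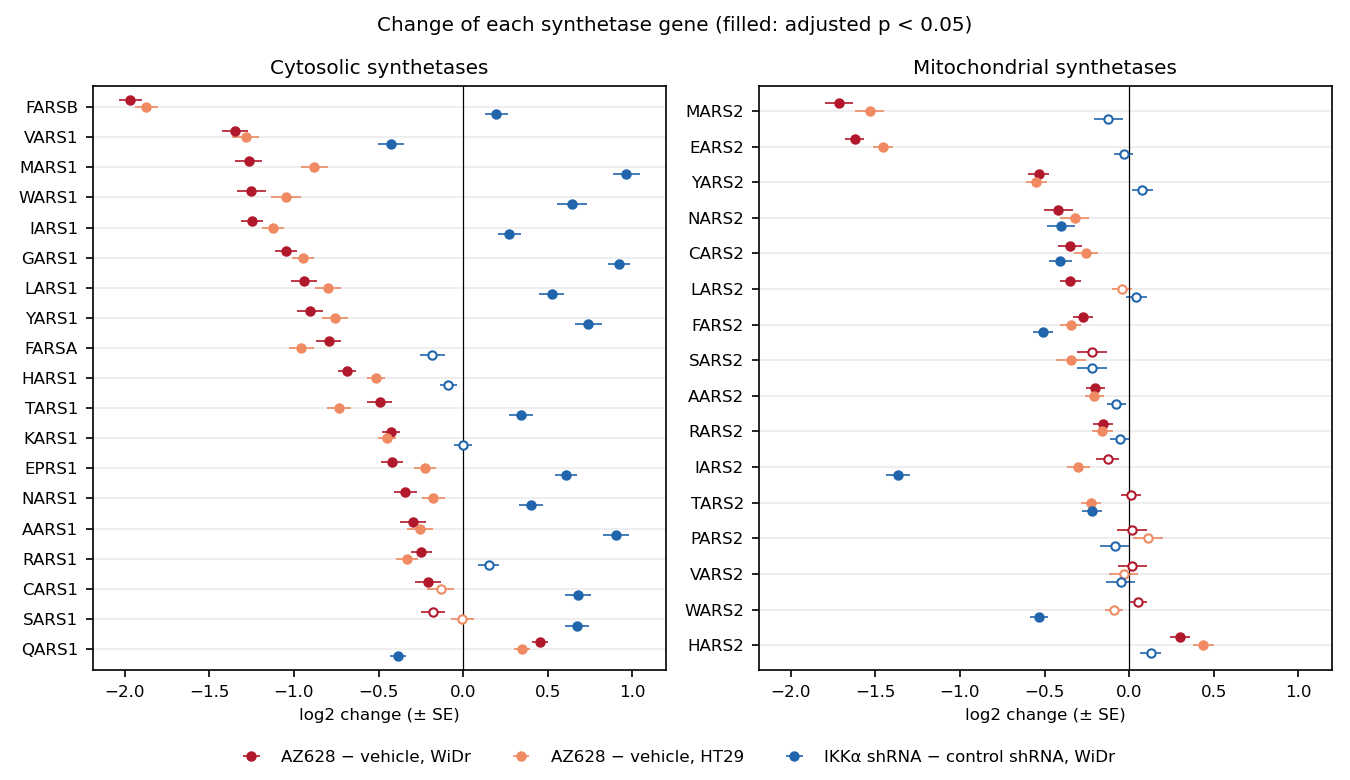
Log2 change with its SE for each cytosolic (left) and mitochondrial (right) synthetase gene, for AZ628 against vehicle in WiDr and in HT29 and for IKKα shRNA against control shRNA in WiDr, with filled points for an adjusted p under 0.05. FARSB, at -1.97 and -1.87 with AZ628, and MARS2, at -1.72 and -1.53, lead their panels, and IARS2 stands apart with IKKα shRNA at -1.37.

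In HT29 most synthetase genes fell with AZ628 as well. Of the 19 cytosolic genes 16 fell, QARS1 rose, and CARS1 and SARS1 did not pass, with a median change of -0.74. Of the 16 mitochondrial genes 11 fell, HARS2 rose and 4 did not pass, with a median of -0.24. Over all genes 21.0% fell and 22.5% rose, with a median of 0.0048. At least 2-fold falls were seen in 4 cytosolic genes (FARSB, VARS1, IARS1 and WARS1) and 2 mitochondrial genes (MARS2 and EARS2), against 4.0% of all genes. The arrays of HT29 and WiDr are separate, so these values repeat the comparison on other samples.

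FARSB read 9.01, 8.96 and 8.96 with AZ628 in HT29, against 10.95, 10.74 and 10.86 with vehicle (-1.87, SE 0.07, adjusted p = 4.94e-13), and FARSA changed by -0.96, SE 0.07, adjusted p = 6.97e-09. VARS1 read 7.80, 7.99 and 7.82 with AZ628 and 9.28, 9.04 and 9.14 with vehicle (-1.28, SE 0.08, adjusted p = 3.17e-10). IARS1 read 10.82, 10.82 and 10.93 with AZ628 and 11.93, 12.08 and 11.94 with vehicle (-1.12, SE 0.07, adjusted p = 1.92e-10). WARS1, with 8.36, 8.49 and 8.40 on the AZ628 arrays and 9.47, 9.41 and 9.50 on the vehicle arrays, changed by -1.05, SE 0.09, adjusted p = 1.73e-08. In all 5 genes the AZ628 arrays lay below the vehicle arrays without overlap.

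QARS1 rose in this line too, with 11.20, 11.22 and 11.18 under AZ628 and 10.89, 10.80 and 10.85 under vehicle (0.35, SE 0.05, adjusted p = 6.77e-06), while its dimmer second probe set changed by 0.27 and did not pass. SARS1 read 10.65, 10.69 and 10.70 with AZ628 and 10.61, 10.75 and 10.69 with vehicle, overlapping values that differed by -0.00, SE 0.07, adjusted p = 0.972, with a 95% interval of the difference from -0.15 to 0.14. CARS1 read 9.71, 9.48 and 9.68 with AZ628 and 9.65, 9.91 and 9.72 with vehicle, also overlapping (-0.13, SE 0.08, adjusted p = 0.193). The falls of NARS1, AARS1 and EPRS1 in HT29 were lost when single arrays were left out. NARS1, the cytosolic asparagine enzyme, changed by -0.18, SE 0.07, adjusted p = 0.0496 with overlapping groups, and its call was lost without any 1 of 15 arrays (adjusted p from 0.0503 to 0.211). AARS1, the alanine enzyme (-0.26), lost its call without vehicle replicate 1 (adjusted p = 0.0563), and EPRS1, the enzyme for both glutamate and proline (-0.23), without vehicle replicate 2 (adjusted p = 0.0556). When probe sets were tested singly with limma, the other probe sets of these genes all fell in HT29. They changed by -0.30, -0.34 and -0.33 for NARS1, -0.34 for AARS1 and -0.49 for EPRS1. The NARS1 probe set used here did not pass in that fit (adjusted p = 0.0664).

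Of the mitochondrial genes, MARS2 read 8.09, 8.02 and 8.19 with AZ628 in HT29 and 9.67, 9.63 and 9.60 with vehicle (-1.53, SE 0.08, adjusted p = 7.09e-11). EARS2 read 7.97, 7.82 and 7.82 with AZ628 and 9.26, 9.39 and 9.33 with vehicle (-1.45, SE 0.06, adjusted p = 1.28e-12). Both stood apart from the other mitochondrial genes as they did in WiDr, and the next fall was that of YARS2, with 9.50, 9.39 and 9.49 under AZ628 and 9.98, 10.12 and 9.91 under vehicle (-0.55). HARS2 rose, with 9.48, 9.46 and 9.47 under AZ628 and 8.92, 9.12 and 9.05 under vehicle (0.44, SE 0.06, adjusted p = 1.02e-05), and HARS1 fell (-0.52, SE 0.05, adjusted p = 2.5e-07), so the divergent pair parted in this line too. TARS2 (-0.23), IARS2 (-0.30) and SARS2 (-0.35) fell here with values that did not pass in WiDr. The test of the difference between the lines did not pass for any of these 3, with adjusted p = 0.0979, 0.364 and 0.675. VARS2 read 8.36, 8.33 and 8.23 with AZ628 and 8.23, 8.40 and 8.40 with vehicle (-0.03, adjusted p = 0.815), the smallest change among the 16 mitochondrial genes in this line. The call for RARS2 (-0.16) was lost without any 1 of 6 arrays, the 3 with AZ628, vehicle replicates 2 and 3 and WiDr vehicle replicate 3 (adjusted p from 0.0504 to 0.132).

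The difference between the AZ628 effects of the lines, HT29 minus WiDr, passed in 2 of 35 genes, against 9.19% of all genes. MARS1 fell less in HT29, where it read 8.80, 8.77 and 8.88 with AZ628 and 9.69, 9.76 and 9.65 with vehicle (-0.88), than in WiDr (-1.27), and the difference was 0.39, SE 0.11, adjusted p = 0.0381. LARS2, the mitochondrial leucine enzyme, read 7.84, 7.82 and 7.83 with AZ628 and 7.90, 7.93 and 7.79 with vehicle in HT29, a change of -0.04 (adjusted p = 0.652), and fell in WiDr (-0.35), a difference of 0.31, SE 0.09, adjusted p = 0.0344. With probe sets tested singly 1 of the 5 of MARS1 passed, and it was not the probe set used here. The MARS1 call was lost without any 1 of 10 of the 18 arrays (adjusted p from 0.0517 to 0.0969) and that of LARS2 without any 1 of 8 (adjusted p from 0.0514 to 0.0928). For the other 33 genes the differences between lines ran from -0.24 (TARS1) to 0.20 (WARS1) and did not pass.

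With IKKα shRNA most cytosolic synthetase genes rose, and the mitochondrial genes either fell or did not pass. Of the 19 cytosolic genes 13 rose, 2 fell (QARS1 and VARS1) and 4 did not pass, with a median change of 0.40. Of the 16 mitochondrial genes 0 rose in the limma fit, 6 fell and 10 did not pass, with a median of -0.10, and 0 rose at an unadjusted p under 0.05 either. AARS2 (alanine) was among the 10, at -0.08. Its other, slightly dimmer probe set changed by -0.35 when probe sets were tested singly with limma (adjusted p = 0.000318). Over all genes 15.9% rose and 19.0% fell, with a median of 0.02. Of the 35 genes 0 rose at least 2-fold, against 1.52% of all genes, and 1 fell at least 2-fold (IARS2), against 2.25%.

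MARS1 rose furthest among the cytosolic genes, with 10.39, 10.58 and 10.41 on the IKKα shRNA arrays, against 9.44, 9.48 and 9.56 with control shRNA (0.97, SE 0.08, adjusted p = 3.08e-08), or 1.95-fold higher. All 5 of its probe sets rose, by 0.81 to 1.03. GARS1 read 13.11, 13.15 and 13.14 with IKKα shRNA and 12.20, 12.21 and 12.23 with control shRNA (0.92, SE 0.07, adjusted p = 6.25e-09). AARS1 read 10.68, 10.76 and 10.67 with IKKα shRNA and 9.79, 9.83 and 9.78 with control shRNA (0.90, SE 0.08, adjusted p = 5.04e-08). YARS1 read 10.94, 11.04 and 10.92 with IKKα shRNA and 10.22, 10.22 and 10.23 with control shRNA (0.74, SE 0.08, adjusted p = 7.58e-07). In each of these genes the groups were separated by far more than the spread of either.

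CARS1 (0.68), SARS1 (0.67), WARS1 (0.64) and EPRS1 (0.61) came next. SARS1 and CARS1, which moved least among the cytosolic genes with AZ628, rose here. SARS1 read 11.25, 11.31 and 11.21 with IKKα shRNA and 10.62, 10.59 and 10.54 with control shRNA. LARS1 rose by 0.52, though 1 of its 3 probe sets changed by -0.02. NARS1, TARS1 (threonine) and IARS1 rose by 0.40, 0.34 and 0.27. FARSB, which fell furthest with AZ628, passed here at 0.20, SE 0.07, adjusted p = 0.0344, a call lost without IKKα shRNA replicate 1 or 2 or any control shRNA array (adjusted p from 0.0654 to 0.156), carried by 1 of its 5 probe sets, and not made against vehicle (0.00, adjusted p = 0.984).

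QARS1 fell, with 10.38, 10.34 and 10.30 on the IKKα shRNA arrays and 10.70, 10.77 and 10.71 on the control shRNA arrays (-0.39, SE 0.05, adjusted p = 3.63e-06). It was opposite in direction to most cytosolic genes in all 3 comparisons, although its dimmer second probe set changed here by -0.08 without passing. VARS1 fell too, with 8.81, 8.82 and 8.66 under IKKα shRNA and 9.18, 9.23 and 9.16 under control shRNA (-0.43, SE 0.08, adjusted p = 0.000319), but its 3 dimmer probe sets did not pass and against vehicle it changed by -0.19 (adjusted p = 0.0671). FARSA (-0.18, adjusted p = 0.0697), HARS1 (-0.09, adjusted p = 0.236) and RARS1, the arginine enzyme (0.15, adjusted p = 0.0733), did not pass. HARS1 read 10.24, 10.20 and 10.27 with IKKα shRNA and 10.36, 10.33 and 10.27 with control shRNA. FARSA passed without HT29 AZ628 replicate 2 (adjusted p = 0.0156) and RARS1 without control shRNA replicate 1 (adjusted p = 0.0125). The other probe set of RARS1, about as bright, rose by 0.19 when probe sets were tested singly with limma (adjusted p = 0.038). KARS1 read 12.59, 12.56 and 12.61 with IKKα shRNA and 12.65, 12.56 and 12.56 with control shRNA, overlapping values with a difference of -0.00 and a 95% interval from -0.12 to 0.11. Of the 2 enzymes that serve both compartments, GARS1 thus rose and KARS1 did not pass, and the difference between the genes was not tested.

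All 7 cytosolic genes with a CARE motif in the printed windows rose with IKKα shRNA, by 0.27 (IARS1) to 0.97 (MARS1) with a median of 0.68. Of the 9 cytosolic genes with a window but no CARE motif, 4 rose (EPRS1, FARSB, SARS1 and WARS1), 1 fell and 4 did not pass, with a median of 0.15. Of all genes 15.9% rose and 19.0% fell. The motif was chosen with earlier results of these data known, and other genes with CARE were not compared. The motif is not shared by every gene that rose, and a missing motif says only that these letters are not in the window. YARS2, the mitochondrial gene with a CARE motif, changed by 0.08 (adjusted p = 0.382). With AZ628 in WiDr the medians of the cytosolic genes with and without CARE were -0.49 and -0.43. In HT29 they were -0.74 and -0.45. These differences were not tested.

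**Figure D3:**
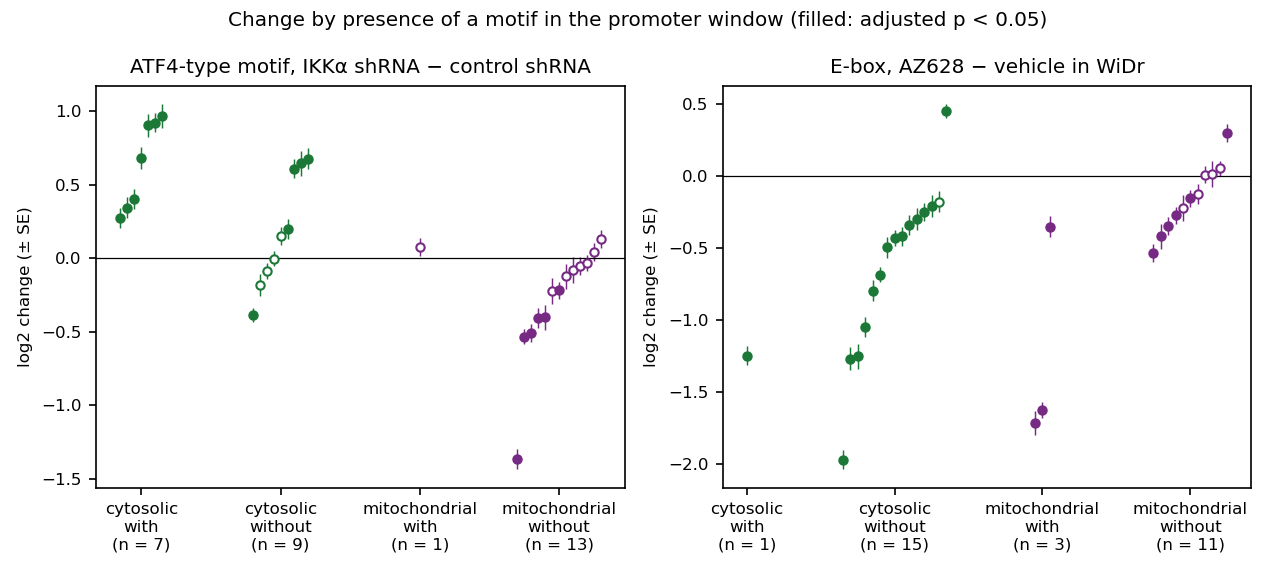
Log2 change with its SE for synthetase genes with a RefSeq promoter window, split by compartment and by presence of CARE (left, IKKα shRNA against control shRNA) or of an E-box (right, AZ628 against vehicle in WiDr), with filled points for genes that passed. The 7 cytosolic genes with CARE are all above 0 on the left, and MARS2 and EARS2, at -1.72 and -1.62, are the 2 low points among the 3 mitochondrial genes with an E-box on the right.

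Of the mitochondrial genes, IARS2 (isoleucine) fell furthest with IKKα shRNA. It read 9.47, 9.36 and 9.51 with IKKα shRNA, against 10.78, 10.86 and 10.80 with control shRNA (-1.37, SE 0.07, adjusted p = 6.47e-11), or 2.58-fold lower, and no other array of the series was as low, the next being 10.46. Only 1 probe set was tied to IARS2, of a type that may match several transcripts. WARS2 read 8.25, 8.13 and 8.20 with IKKα shRNA and 8.73, 8.69 and 8.74 with control shRNA (-0.53, SE 0.05, adjusted p = 3.76e-07), and of its 3 other probe sets 2 fell by 0.64 and 0.74 on the log2 scale and a dim one did not pass. FARS2, the mitochondrial phenylalanine enzyme, read 8.19, 7.97 and 8.01 with IKKα shRNA and 8.59, 8.51 and 8.60 with control shRNA (-0.51, SE 0.06, adjusted p = 2.78e-06). IARS1 and WARS1, the cytosolic counterparts of IARS2 and WARS2, rose in the same arrays.

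CARS2 fell too, with 9.76, 9.60 and 9.60 under IKKα shRNA and 10.12, 10.14 and 9.91 under control shRNA (-0.41, SE 0.07, adjusted p = 0.000156), without overlap. When its 3 probe sets were tested singly with limma, another fell (-0.31) and a dim one changed by 0.40 without passing (adjusted p = 0.0905). NARS2 (-0.40) and TARS2 (-0.22) fell as well. SARS2 changed by -0.22 without passing (adjusted p = 0.0632), and passed without vehicle replicate 1 of WiDr (adjusted p = 0.0447) or without IKKα shRNA replicate 1 (adjusted p = 0.0327). TARS2 differed from vehicle by -0.02 (adjusted p = 0.818), and its control shRNA arrays were higher than vehicle by 0.20. EARS2 read 9.55, 9.51 and 9.56 with IKKα shRNA and 9.61, 9.54 and 9.56 with control shRNA, and LARS2 7.79, 7.66 and 7.77 with IKKα shRNA and 7.80, 7.65 and 7.65 with control shRNA, and both overlapped. EARS2 and MARS2, the mitochondrial genes that fell deepest with AZ628, changed by -0.03 (adjusted p = 0.711) and -0.12 (adjusted p = 0.292) with IKKα shRNA, and against vehicle EARS2 turned to 0.17 (adjusted p = 0.0248). HARS2, the neighbour of HARS1, changed by 0.13 (adjusted p = 0.125) against control shRNA and rose by 0.23 against vehicle.

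**Figure D4:**
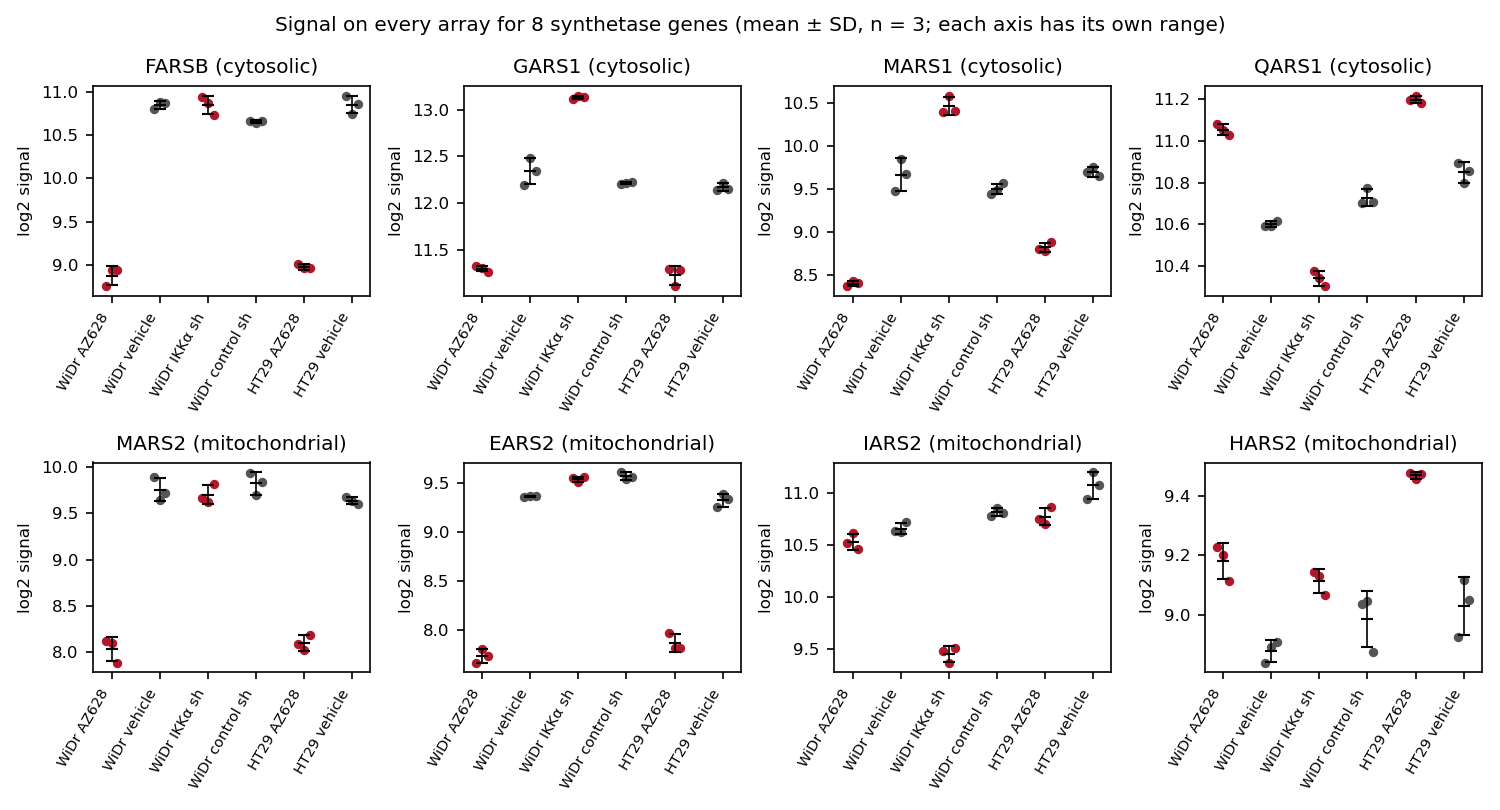
Log2 signal on every array (points) with the mean and SD of 3 arrays for 8 synthetase genes, perturbed groups in red and controls in grey. FARSB, MARS2 and EARS2 were low with AZ628 in both lines, GARS1 and MARS1 were also high with IKKα shRNA, QARS1 was high with AZ628 and low with IKKα shRNA, IARS2 was low with IKKα shRNA alone among the 6 groups, and HARS2 was high with AZ628.

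Against vehicle in place of control shRNA, 13 cytosolic genes rose with IKKα shRNA and 1 fell (QARS1), with a median of 0.31, while 2 mitochondrial genes rose and 7 fell, with a median of -0.09 (all genes, 16.4% higher and 19.8% lower, median -0.06). Control shRNA itself differed from vehicle in 7 of the 35 genes, against 22.2% of all genes. FARSA (0.23), VARS1 (0.23), EARS2 (0.21), TARS2 (0.20) and WARS2 (0.19) were higher and SARS1 (-0.23) and VARS2 (-0.27) lower with control shRNA. Each of these 7 calls was lost without any 1 of 2 to 8 arrays.

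The responses to IKKα shRNA and to AZ628 in WiDr use separate control arrays and were set against each other in 1 contrast, the shRNA effect minus the AZ628 effect. It passed above 0 in 18 of 19 cytosolic genes and below 0 in QARS1, with a median of 0.92. In the mitochondrial genes 4 passed above 0 (EARS2, MARS2, YARS2 and LARS2) and 4 below 0 (IARS2, WARS2, FARS2 and TARS2), with a median of -0.03. The FARS2 and TARS2 calls were lost without any 1 of 8 and 6 arrays (adjusted p up to 0.0963 and 0.0863). Over all genes 20.1% passed above 0 and 22.3% below, with a median of 0.04. The difference was at least 2-fold above 0 in 9 cytosolic and 2 mitochondrial genes, against 5.03% of all genes, and below 0 in IARS2, against 6.93%. The difference was 2.23, SE 0.11, adjusted p = 3.14e-11 for MARS1, 2.16, SE 0.10, adjusted p = 6.62e-12 for FARSB and 1.97, SE 0.09, adjusted p = 1.72e-11 for GARS1. For QARS1 it was -0.84, SE 0.07, adjusted p = 1.07e-08 and for IARS2 -1.24, SE 0.10, adjusted p = 1.06e-08. In direction, 11 of the 19 cytosolic genes fell with AZ628 in both lines and rose with IKKα shRNA, against 3.29% of all genes. Another 4 fell with AZ628 in both lines and did not pass with the shRNA (FARSA, HARS1, KARS1 and RARS1), against 8.20% of all genes, and VARS1 fell in all 3 comparisons, against 5.56%. No mitochondrial gene fell with AZ628 and rose with the shRNA in that fit, and 3 of 16 fell in all 3 comparisons (CARS2, FARS2 and NARS2).

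On each array the median deviation of the 19 cytosolic genes from their control means was -0.62, -0.75 and -0.68 with AZ628 in WiDr, against -0.05, 0.04 and 0.02 on the vehicle arrays. In HT29 it was -0.72, -0.59 and -0.65 with AZ628, against -0.03, 0.04 and 0.01 with vehicle. With IKKα shRNA it was 0.36, 0.40 and 0.44, against 0.01, 0.00 and -0.03 with control shRNA. The median of the 16 mitochondrial genes lay between -0.27 and -0.20 on the 6 AZ628 arrays and between -0.16 and -0.10 on the IKKα shRNA arrays. The cytosolic minus the mitochondrial median was -0.52 to -0.32 on the AZ628 arrays and 0.46 to 0.60 on the IKKα shRNA arrays, against -0.06 to 0.07 on the control arrays, without overlap. Each control array is part of its own baseline, which holds its values near 0, so this lack of overlap is not a test.

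**Figure D5:**
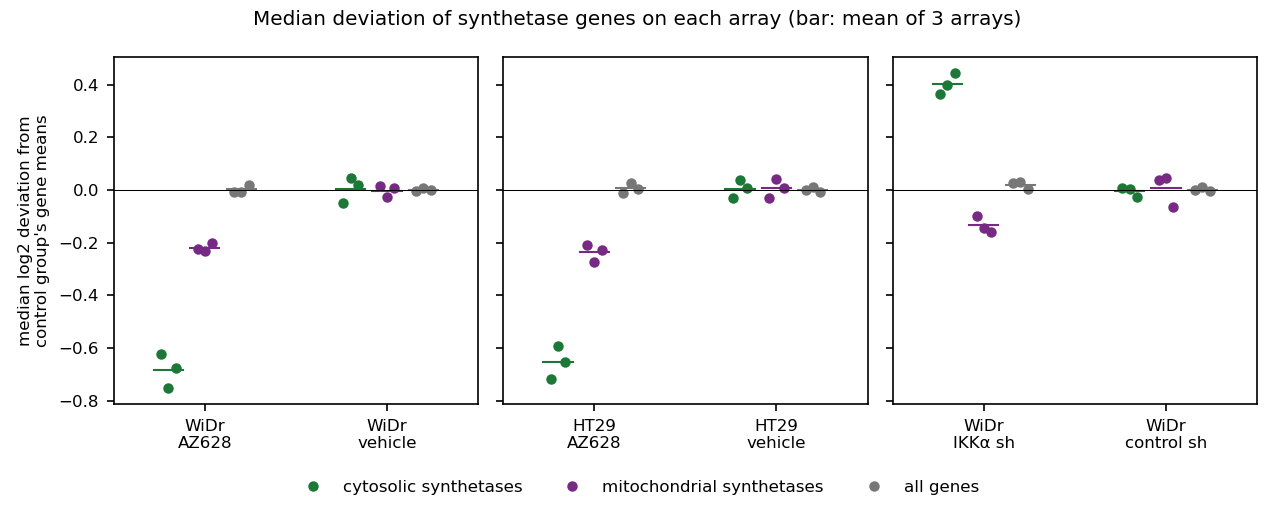
Median log2 deviation of the 19 cytosolic synthetase genes, the 16 mitochondrial ones and all 18132 genes from the gene means of the control group, for each array (points) with the mean of 3 arrays (bars). The cytosolic median lay between -0.75 and -0.59 on the AZ628 arrays and between 0.36 and 0.44 on the IKKα shRNA arrays, while the median of all genes stayed within 0.03 of 0.

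The cytosolic genes were also split by catalytic class and by membership of the multisynthetase complex. Of all genes 21.1% fell with AZ628 in WiDr and 21.0% in HT29, and 15.9% rose with IKKα shRNA. With AZ628 in WiDr 8 of 9 class I genes fell (median -0.94) and 8 of 9 class II genes (median -0.49), and in HT29 7 of 9 (median -0.80) and 8 of 9 (median -0.52). With IKKα shRNA 6 of 9 class I and 6 of 9 class II genes rose (medians 0.52 and 0.34). EPRS1, which joins an enzyme of each class in 1 protein, fell with AZ628 and rose with the shRNA. Of the 7 genes whose products sit in the complex 6 fell with AZ628 in each line (medians -0.43 and -0.45) and 4 rose with IKKα shRNA (median 0.27), and of the 12 outside it 11 and 10 fell (medians -0.74 and -0.75) and 9 rose (median 0.52). AIMP1, a scaffold protein of the complex, fell with AZ628 by 0.23 in WiDr and 0.42 in HT29 on the log2 scale and changed by 0.14 (adjusted p = 0.098) with IKKα shRNA.

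With vehicle, HT29 and WiDr differed in 10 of the 35 genes, against 32.2% of all genes. RARS2 read 9.56, 9.70 and 9.69 in HT29, against 10.22, 10.22 and 10.23 in WiDr (-0.58, SE 0.06, adjusted p = 6.25e-07). FARS2 read 9.19, 9.15 and 9.11 in HT29 and 8.68, 8.59 and 8.59 in WiDr (0.53, SE 0.06, adjusted p = 1.88e-06). YARS2 (0.42), IARS2 (0.42), QARS1 (0.25), TARS2 (0.24) and WARS2 (0.24) were higher in HT29, and WARS1 (-0.40), CARS1 (-0.33) and IARS1 (-0.18) lower. The lines thus differed in 6 mitochondrial and 4 cytosolic genes. The IARS1 call was lost without any 1 of 13 arrays (adjusted p from 0.0506 to 0.151).

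Genes of neighbouring steps were read beside the synthetases. ATF4, the transcription factor of the amino acid response, changed by -0.18, SE 0.05, adjusted p = 0.00745 with AZ628 in WiDr, -0.15, SE 0.05, adjusted p = 0.0256 in HT29 and 0.45, SE 0.05, adjusted p = 1.42e-06 with IKKα shRNA. Of the 16 genes listed as ATF4 factors and targets, 11 fell and 4 rose with AZ628 in WiDr (median -0.47), 9 fell and 3 rose in HT29 (median -0.28), and 15 rose with IKKα shRNA (median 1.18). Over all genes 21.1% fell and 23.4% rose with AZ628 in WiDr, and 21.0% fell and 22.5% rose in HT29. The 4 and 3 rises were thus near the shares over the array. With IKKα shRNA 15.9% of all genes rose. The asparagine synthetase gene ASNS, which makes the amino acid that NARS1 loads, changed by -0.97, -0.38 and 2.19 in that order, and TRIB3, a pseudokinase that restrains ATF4, by -1.93, -1.25 and 1.31. DDIT4, an inhibitor of mTORC1, rose in all 3, by 1.17, 1.14 and 2.71, and by 1.75 with IKKα shRNA against vehicle. Of the 16 listed genes, 8 were lower and 2 higher with control shRNA than with vehicle (median -0.22). Over all genes 22.2% differed in either direction between these groups. Against vehicle 15 of the 16 rose with IKKα shRNA (median 0.87), against 16.4% of all genes. MYC changed by -3.98 and -3.14 with AZ628 and by -0.04 (adjusted p = 0.759) with the shRNA.

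Amino acid transporters fell in 7 of 9 cases with AZ628 in each line (medians -1.55 and -1.39, with 1 rise in HT29, SLC38A2) and with IKKα shRNA 6 rose and 1 fell (median 0.64). Over all genes 21.1% fell and 23.4% rose with AZ628 in WiDr, and 21.0% fell and 22.5% rose in HT29. With IKKα shRNA 15.9% of all genes rose and 19.0% fell. SLC7A5, the importer of leucine and other large neutral amino acids, changed by -2.21, -1.98 and 1.68, and its partner chain SLC3A2 by -0.83, -0.60 and 1.28. Among 5 measured tRNA processing and export genes all fell with AZ628 in both lines (medians -1.03 and -0.96), led by PUS1, which makes pseudouridine in tRNA (-2.31 and -1.97), and XPOT, the nuclear exporter of tRNA (-1.33 and -1.37). With IKKα shRNA 1 of them rose and 3 fell, against 15.9% and 19.0% of all genes, and XPOT changed by -0.15 (adjusted p = 0.303).

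Downstream of charging, the cytosolic elongation factors moved little. Of 5 genes EEF2 rose with AZ628 in WiDr (0.16) and HT29 (0.16), EEF1B2 fell in HT29 (-0.14) and EEF1D fell with IKKα shRNA (-0.19). Over all genes 23.4% rose and 21.1% fell with AZ628 in WiDr, and 22.5% rose and 21.0% fell in HT29. With IKKα shRNA 15.9% of all genes rose and 19.0% fell. The calls among these 5 elongation factor genes were near those shares. Of 7 measured mitochondrial charging and elongation factors 6 fell in WiDr and 7 in HT29 with AZ628 (medians -0.43 and -0.49), and 3 fell and 1 rose with IKKα shRNA (median -0.11). Within this list QRSL1 and GATC, which with GATB turn the product of EARS2 into glutaminyl-tRNA, fell with AZ628 by 0.43 and 0.62 in WiDr on the log2 scale, and GATB changed by 0.03 (adjusted p = 0.753). GATB fell with IKKα shRNA (-0.53). Of the 4 kinases that phosphorylate eIF2α upstream of ATF4, EIF2AK2 and EIF2AK3 rose with AZ628 in WiDr (0.26 and 0.28), EIF2AK3 in HT29 (0.43), and 0 of 4 passed with IKKα shRNA in the limma fit, where 1 of the 4 had an unadjusted p under 0.05.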

How the data were processed

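RNA of 18 samples was hybridised to human expression arrays, 3 in each of 6 groups. The authors deposited log2 values per probe set that had been normalised with RMA, per the labels and the submitters' processing notes, which name R 3.0.2 and limma. The background correction and scaling inside RMA were therefore fixed before the values were used here, and RMA makes signals relative to the other transcripts of the array.

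Of 49395 probe sets, 44994 carried 1 gene symbol, 1832 several and 2569 none in the platform annotation, which left 18132 genes, with the brightest single-symbol probe set kept for each. A model with 6 group means was fitted with limma 3.58.1 in R 4.3.3 (lmFit and eBayes, 12 residual and 4.49 prior degrees of freedom), and p-values were adjusted by Benjamini-Hochberg per contrast across the 18132 genes, with a threshold of 0.05. The same steps were tested on simulated data. The number of arrays limits the precision. Array replicate numbers did not pair the samples (correlations of deviations from group means between -0.233 and 0.178), so no block was used.

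The 35 members, the other gene lists (14 lists in all with 107 of 112 entries measured) and the motifs were chosen with earlier results of these data known. Values on every array are given for members among the 4 largest changes of their compartment in any of the 3 treatment comparisons, for members that passed against the majority of their compartment and for the 2 smallest changes, and other lists are given as counts with up to 4 passing genes of largest change. ATF4 and a few members outside this rule were added after their values were seen. The alternatives were other ways to choose, average or filter probe sets, a second quantile normalisation, an intensity trend, a replicate block, fits to fewer groups, a 2-fold minimum, vehicle in place of control shRNA, and leaving out each array in turn. Promoter windows came from RefSeq (GRCh38.p14). Protein sequences were not used here.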

Additional observations from a re-analysis of the deposited data

Results flagged for a closer look

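In 2 of the 35 synthetase genes the AZ628 effect differed between the lines in the limma test of the difference itself, HT29 minus WiDr. For MARS1, the cytosolic methionine enzyme, the difference was 0.39 on the log2 scale, with a smaller fall in HT29 (-0.88) than in WiDr (-1.27). For LARS2, the mitochondrial leucine enzyme, it was 0.31, with a change of -0.04 in HT29 and -0.35 in WiDr. Over all genes 9.19% differed by the same test, so 2 of 35 is not more than the share over the whole array, and both calls were lost when single arrays were left out. The spread of single arrays within groups was not screened, since each group holds 3 arrays.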

How the results depend on the processing

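Leaving out 1 array at a time, the cytosolic synthetases that fell with AZ628 numbered 16 to 18 in WiDr and 14 to 16 in HT29, and those that rose with IKKα shRNA 12 to 13. Their medians stayed between -0.71 and -0.65 in WiDr, -0.74 and -0.66 in HT29, and 0.37 and 0.44 with the shRNA. The mitochondrial medians were -0.23 to -0.18, -0.26 to -0.22 and -0.14 to -0.0696 in that order. The counts were 0 to 2 for the difference between lines, 2 to 4 mitochondrial genes below 0 for the shRNA minus the AZ628 effect, 9 to 14 between vehicle-treated lines and 1 to 9 between control shRNA and vehicle. Of the calls in single genes, 26 of 28 with AZ628 in WiDr, 25 of 29 in HT29, 20 of 21 with IKKα shRNA and 0 of 2 between the lines were kept under every array left out. With a 2-fold minimum, the genes that fell with AZ628 were 6 cytosolic and 2 mitochondrial in WiDr and 4 and 2 in HT29, with 0 that rose. With IKKα shRNA 0 cytosolic genes rose, 0 fell and 1 mitochondrial gene fell, and the shRNA minus the AZ628 effect passed above 0 in 9 cytosolic and 2 mitochondrial genes and below 0 in 0 and 1. The other 3 contrasts then held 0 genes. With vehicle in place of control shRNA, 1 cytosolic gene fell and 2 mitochondrial genes rose, the cytosolic median was 0.31, and EARS2 changed sign to 0.17. After a second quantile normalisation 1 mitochondrial gene rose with IKKα shRNA (median -0.0708), 2 were below 0 in the shRNA minus the AZ628 effect, and the HT29 cytosolic median was -0.64. With all probe sets in the fit and the same ones read for each gene, the difference between lines held 0 genes and the shRNA minus the AZ628 effect 2 mitochondrial genes below 0. A fit to the groups of each contrast alone gave 1 gene for the difference between lines and 2 for control shRNA against vehicle. Averaging a gene's probe sets gave cytosolic medians of -0.45 in WiDr, -0.50 in HT29 and 0.33 with IKKα shRNA. It also turned CARS2 to 0.39 in the shRNA minus the AZ628 effect. Leaving out probe sets that may match several transcripts gave cytosolic medians of -0.56 in WiDr and -0.48 in HT29. YARS1 and IARS2 have no other probe set and are absent from that fit. The cause of these differences was not tested.

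The replicate numbers did not pair the arrays, and with a replicate block the genes called over the whole array numbered 8030 in place of 8079 with AZ628 in WiDr, 7836 in place of 7899 in HT29 and 6213 in place of 6323 with IKKα shRNA. It moved 9 calls in single synthetases, all of them near the threshold, among them CARS1 (adjusted p = 0.0515 in limma) and SARS1 (0.0472) with AZ628 in WiDr and FARSB (0.0508) with IKKα shRNA. The number of arrays, 3 per group, and signal over background limit changes in dim probe sets.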
